A study of Caenorhabditis elegans with 6 samples.

Results

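Cytochromes P450 are haem-containing monooxygenases that insert an oxygen atom into sterols, fatty acids and foreign compounds, and most draw their electrons from a P450 reductase. In Caenorhabditis elegans the family is large, and many members sit in the intestine, where they carry out the initial oxidation of foreign compounds before conjugating enzymes act. Families 14, 33, 34 and 35 resemble vertebrate CYP2 enzymes, families 13 and 25 resemble CYP3, and families 29, 31, 32, 37 and 42 resemble the fatty acid hydroxylases of CYP4.

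The genes described here are all those whose platform symbol begins with cyp- and a number, each read by its brightest probe set over all arrays that carries that symbol alone. This gave 73 of the 17118 genes on the array, in 15 families and 25 subfamilies. They were chosen by name and not by value. The gene table lists 70 of them as protein coding and 3 as pseudogenes (cyp-29A1, cyp-31A1 and cyp-34A3). It holds 80 P450 genes in all, 74 of them protein coding. A further 2 probe sets carried more than 1 P450 symbol and were not used.

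RNA came from whole starved larvae of the first stage (L1), collected 30 h after bleaching and kept from then at 20 °C in S-basal, a salt buffer, with no cholesterol added. The 2 groups were lin-35(n745), which carries a premature stop in the worm homologue of the retinoblastoma gene, and wild type, and both were starved. Each had 3 one-colour Affymetrix arrays, which the labels call biological replicates. Fed larvae were not analysed here, so each difference below is between genotypes within starvation.

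Levels are log2 values from robust multi-array averaging (RMA), so that a difference of 1 is 2-fold. Differences are lin-35(n745) minus wild type, tested with limma and adjusted over all 22548 probe sets. A gene is called, and said to have risen or fallen, when the adjusted p is below 0.05. Precision is limited by having 3 arrays of each genotype. For lin-35 itself the probe set read 7.68, 7.41 and 7.18 on the mutant arrays, against 7.49, 7.15 and 7.45 on the wild-type arrays (adjusted p = 0.894). Because n745 is a point mutation, this level is no check of the genotype labels. The 3′ minus 5′ log2 difference of the actin control transcript, a measure of RNA integrity, was 2.31, 0.41 and 1.23 on mutant replicates 1 to 3, against 0.53, 0.70 and 0.78 on wild-type replicates 1 to 3.

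Of the 73 P450 genes, 8 were called, or 11%, against 11.8% of all genes. cyp-14A5, cyp-33C8, cyp-33C7, cyp-13A5 and cyp-43A1 rose in the mutant, which is 6.85% of the family against 5.71% of all genes. cyp-13B1, cyp-25A6 and cyp-32B1 fell, or 4.11% against 6.12% of all genes. These shares lie near those of the array as a whole, where 978 genes rose and 1047 fell. With each array centred on its median, 984 genes rose and 1735 fell over the array, and 5 rose and 4 fell in the family. The median difference of the family was -0.01, and that of all genes was -0.04. The rises reached further than the falls, with extremes of 4.29 and -1.39. Among the 65 genes without a call, differences lay between -1.36 and 0.73.

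**Figure D1:**
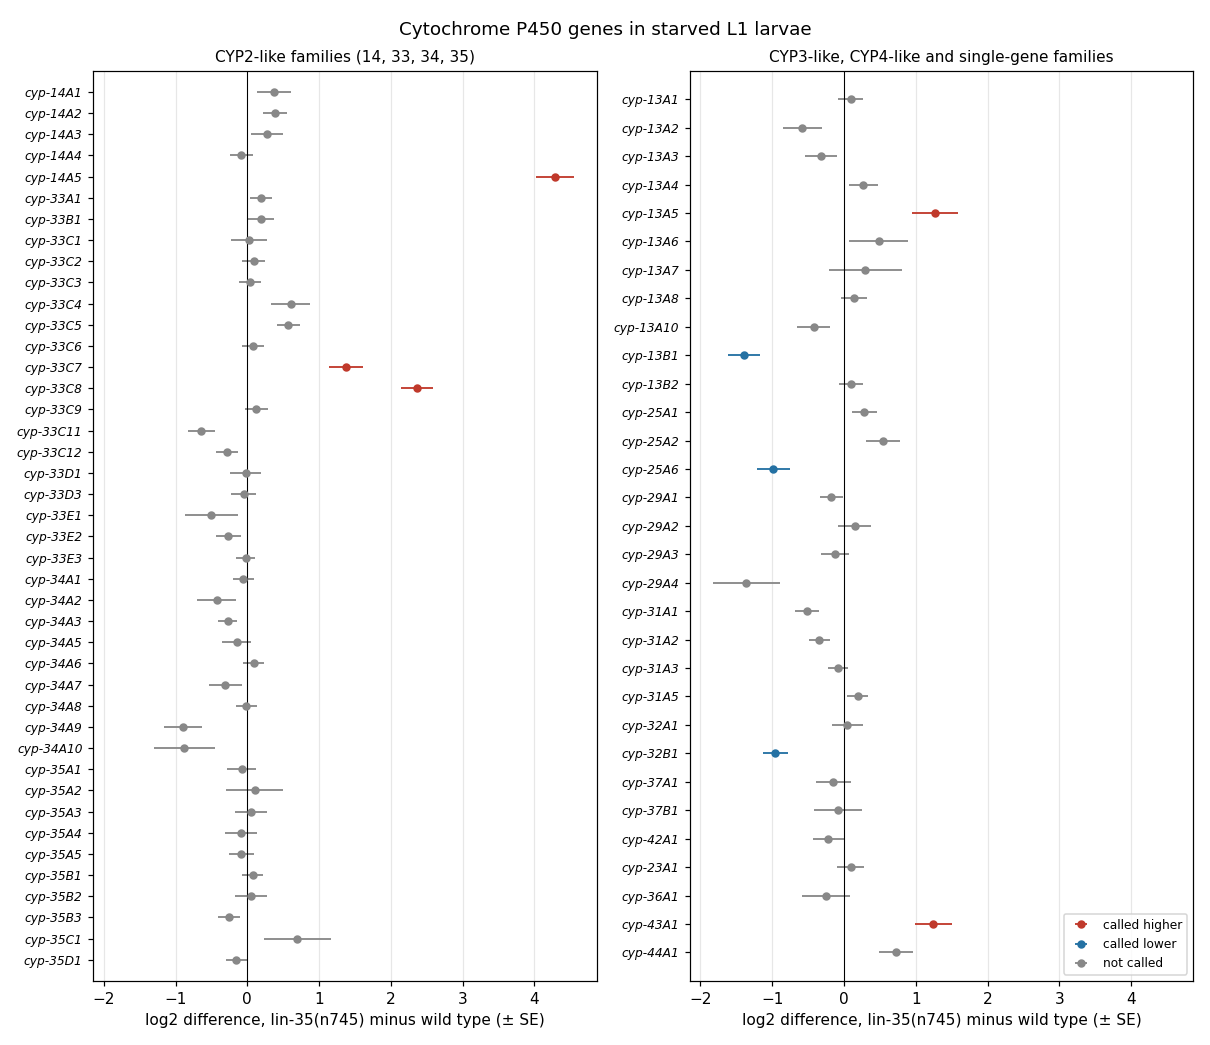
Log2 difference (x axis, lin-35(n745) minus wild type) of each of the 73 P450 genes, with points for the estimate and bars for the standard error of limma. Red marks the 5 genes called higher and blue the 3 called lower. cyp-14A5, at 4.29, stands far to the right of every other member, and 54 members lie within 0.5 of no difference.

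cyp-14A5 (F08F3.7, chromosome V) showed the largest difference of the family. It read 10.90, 11.09 and 10.47 on the mutant arrays, against 6.35, 6.23 and 7.02 on the wild-type arrays. Every mutant array lay more than 3 log2 units above every wild-type array. The means were 10.82 ± 0.32 in lin-35(n745) and 6.53 ± 0.42 in the wild type (SD, n = 3 each), a difference of 4.29 (SE 0.26, limma adjusted p = 0.000297), or 19.6-fold. In whole larvae a change in the number of cells that make a transcript and a change of RNA per cell cannot be told apart. The probe set of cyp-14A5 is of a kind that can match more than 1 transcript and is the 1 probe set read for this gene. The call held without any 1 of the 6 arrays.

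The other measured members of subfamily 14A did not pass the test. The 4 genes cyp-14A1 to cyp-14A4, which lie on chromosome X and not beside cyp-14A5, had differences of -0.08 to 0.38. cyp-14A2 read 3.98, 4.21 and 4.27 in the mutant, against 3.53, 3.89 and 3.89 in the wild type (adjusted p = 0.205). Its arrays did not overlap between genotypes, but all 6 were dim.

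Subfamily 33C held the next largest rise. cyp-33C8 (R08F11.3, chromosome V) read 9.75, 10.54 and 9.95 in the mutant, against 7.57, 7.85 and 7.73 in the wild type. The genotypes were well apart on all arrays, and the difference was 2.37 (SE 0.23, limma adjusted p = 0.00160), or 5.15-fold. That call, too, held without any 1 array. cyp-33C7 (F41B5.2, chromosome V) read 8.79, 8.88 and 8.09 in the mutant, against 7.32, 7.33 and 6.98 in the wild type. Replicate 3 was the lowest of its genotype in both groups, and the groups still did not overlap. The difference was 1.37 (SE 0.24, limma adjusted p = 0.0141), and the call was lost without wild-type replicate 1 (0.0517).

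The remaining 9 of the 11 measured 33C genes were not called, 7 with a positive and 2 with a negative estimate. cyp-33C5 came closest, at 5.98, 5.98 and 5.65 in the mutant, against 5.30, 5.36 and 5.23 in the wild type. Its difference of 0.57 (limma adjusted p = 0.0591) was called without mutant replicate 3, with array weights and with the mean of probe sets. cyp-33C4 read 8.25, 8.37 and 7.49 in the mutant, against 7.58, 7.61 and 7.10 in the wild type, and the groups overlapped (adjusted p = 0.209). The probe sets of cyp-33C5 and cyp-33C4 can match more than 1 transcript. Whether they share signal with the nearby cyp-33C7 was not tested. In the other direction cyp-33C11 read 5.28, 5.33 and 5.50, against 5.89, 6.36 and 5.79 in the wild type. Its arrays did not overlap, and the adjusted p was 0.0733. The 7 measured genes of subfamilies 33A, 33B, 33D and 33E were not called, among them cyp-33E2, an enzyme of eicosanoid formation, with a difference of -0.27 (adjusted p = 0.404).

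**Figure D2:**
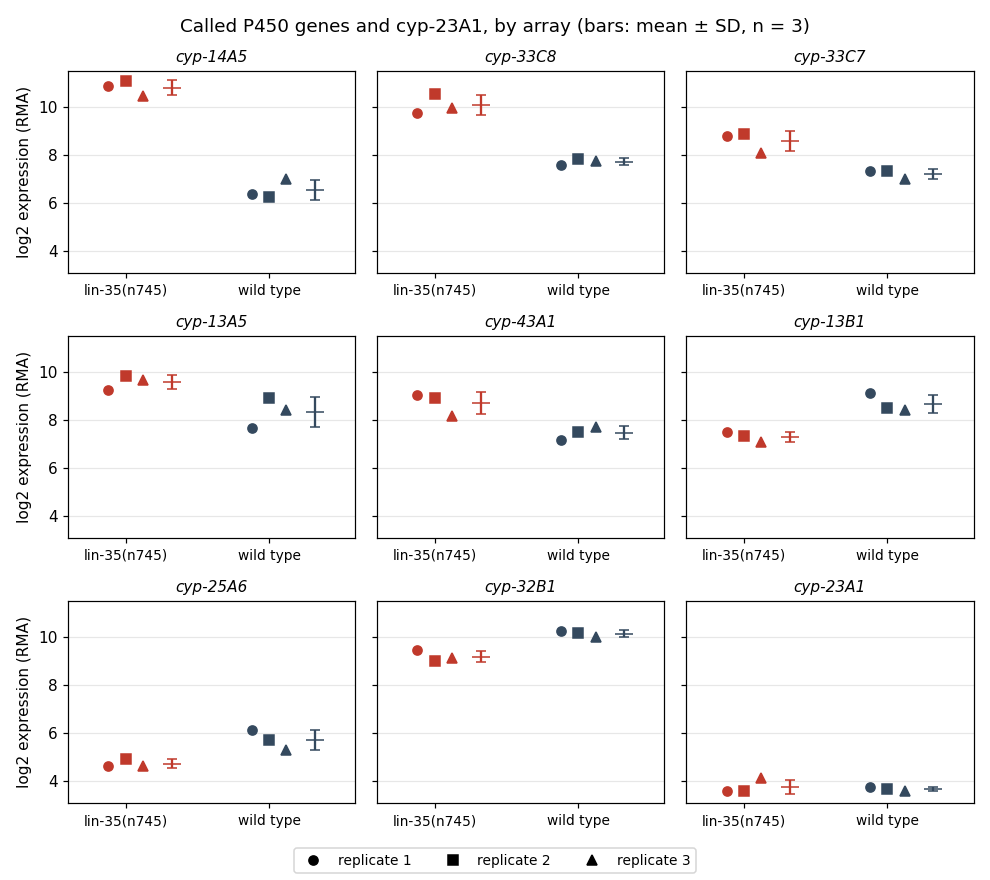
Log2 expression on each array (y axis) for the 8 called P450 genes and cyp-23A1, with lin-35(n745) left of wild type, 1 marker shape per replicate number and bars for the mean and SD of 3 arrays. In the called genes no mutant array reaches into the wild-type range, whereas the 6 readings of cyp-23A1 lie between 3.56 and 4.10.

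Subfamily 34A had no call, although 8 of its 9 members had a negative estimate, with a median of -0.28. cyp-34A9, also named dod-16 as a gene downstream of DAF-16, read 9.51, 8.89 and 8.53 in the mutant, against 9.72, 9.79 and 10.13 in the wild type. The mutant arrays were all lower, with mutant replicate 1 nearest to the wild type. The difference was -0.90 (SE 0.27, limma adjusted p = 0.0739), and it was called without mutant replicate 1 (0.0206) and with median centring (0.0385). Its neighbour cyp-34A10 read 7.93, 7.48 and 6.26 in the mutant, against 7.65, 8.34 and 8.31 in the wild type, where the genotypes overlapped (adjusted p = 0.249).

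Family 35, whose 35A members are induced by foreign compounds and affect fat storage, showed no call among 10 measured genes. The 5 genes of subfamily 35A had differences of -0.09 to 0.10, with adjusted p of 0.850 to 0.931. cyp-35A2 read 8.85, 7.83 and 7.33 in the mutant, against 8.39, 7.58 and 7.74 in the wild type. The spread within each genotype exceeded the difference of 0.10, whose 95% interval ran from -0.84 to 1.04. cyp-35C1 read 6.89, 6.76 and 5.84 in the mutant, against 6.69, 5.79 and 4.92 in the wild type. Both genotypes spread widely here, and the interval of -0.41 to 1.80 includes no difference as well as a rise of more than 2-fold. cyp-35B3 had the smallest p of the family, at 3.37, 3.52 and 3.73 in the mutant, against 3.68, 3.91 and 3.79 in the wild type (adjusted p = 0.383).

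In the CYP3-like families 13 and 25, 1 gene rose and 2 fell among 14. cyp-13B1 (F02C12.5, chromosome X) read 7.51, 7.32 and 7.07 in the mutant, against 9.12, 8.52 and 8.43 in the wild type. The highest mutant array lay well below the lowest wild-type array, and the difference was -1.39 (SE 0.23, limma adjusted p = 0.0110), so that the wild type was 2.62-fold higher. The second probe set of this gene gave 7.01, 6.85 and 5.57 in the mutant, against 8.73, 7.92 and 7.97 in the wild type. It was called as well, at -1.73 (SE 0.41, adjusted p = 0.0393). Both probe sets are of a kind that can match more than 1 transcript. The call on the brighter one held without any 1 array and was lost with mutant replicates 1 and 3 left out together (0.119).

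cyp-25A6 (K06B9.1, chromosome IV) read 4.63, 4.92 and 4.60 in the mutant, against 6.12, 5.70 and 5.28 in the wild type. The groups did not overlap, and the difference was -0.99 (SE 0.23, limma adjusted p = 0.0389). Of the 6 fits without 1 array, only that without wild-type replicate 3 kept the call. The adjusted p was 0.118 without wild-type replicate 1, 0.105 without wild-type replicate 2, and 0.0864, 0.0557 and 0.117 without mutant replicates 1, 2 and 3. cyp-25A1 and cyp-25A2 had positive estimates and were not called. cyp-25A2 read 8.98, 8.11 and 8.45 in the mutant, against 8.08, 8.00 and 7.83 in the wild type (adjusted p = 0.193), again with no overlap.

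cyp-13A5 (T10B9.2, chromosome II) was the 1 called gene among 9 of subfamily 13A. It read 9.27, 9.83 and 9.70 in the mutant, against 7.68, 8.91 and 8.41 in the wild type. Wild-type replicate 2 came closest to the mutant range, and the groups did not overlap. The difference was 1.27 (SE 0.32, limma adjusted p = 0.0475), close to the threshold. The call survived the loss of wild-type replicate 2 alone. It ended when wild-type replicates 1 (0.109) or 3 (0.0909) were dropped, or any mutant array, with 0.0531, 0.112 and 0.139 for mutant replicates 1, 2 and 3. The others of 13A had differences of -0.58 to 0.48, among them cyp-13A7, a rifampicin-induced gene, which differed by 0.30 (adjusted p = 0.797).

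Among 13 genes of the CYP4-like families cyp-32B1 (Y5H2B.5, chromosome V) alone was called. It read 9.46, 9.03 and 9.12 in the mutant, against 10.27, 10.20 and 10.01 in the wild type. Each group was tight and the mutant lay below the wild type throughout, by 0.96 on average (log2 difference -0.96, SE 0.17, limma adjusted p = 0.0152). The call was lost when wild-type replicate 1 (0.0751) or 2 (0.0527) was dropped. Its probe set can match more than 1 transcript.

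cyp-29A4 had the largest difference of all P450 genes without a call. It read 6.06, 4.77 and 4.47 in the mutant, against 6.74, 5.76 and 6.88 in the wild type. Mutant replicate 1 overlapped with the wild type, and the difference of -1.36 (SE 0.47) had an adjusted p of 0.111. It was called without mutant replicate 1 (0.0258), with array weights (0.0331) and with the replicate block (0.0425). cyp-29A3, which acts in eicosanoid formation, differed by -0.12 (adjusted p = 0.783).

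Family 31 includes cyp-31A2 and cyp-31A3, which act redundantly in the formation of the eggshell's lipid layer. cyp-31A2 read 5.92, 5.83 and 5.65 in the mutant, against 6.20, 6.14 and 6.08 in the wild type, and cyp-31A3 read between 4.20 and 4.44 on all arrays. The pseudogene cyp-31A1 read 7.64, 7.45 and 7.20 in the mutant, against 7.85, 8.10 and 7.89 in the wild type. Mutant readings of cyp-31A1 and cyp-31A2 were all lower, yet neither was called (adjusted p = 0.103 and 0.184). Their probe sets can match more than 1 transcript, and whether they share signal was not tested.

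Families 37 and 42 and cyp-32A1 had no call. cyp-37B1 read 12.04, 10.92 and 10.81 in the mutant, against 11.30, 11.54 and 11.18 in the wild type, with a 95% interval of the difference from -0.86 to 0.69. cyp-32A1 read 9.64, 9.18 and 8.89 in the mutant, against 9.06, 9.18 and 9.34 in the wild type, with an interval of -0.47 to 0.55. cyp-37A1 read 9.52, 8.72 and 8.96 in the mutant, against 9.51, 9.08 and 9.05 in the wild type, with an interval of -0.72 to 0.43. In each of the 3, mutant replicate 1 was the highest of the 6 arrays. cyp-42A1 read 6.31, 6.74 and 6.30 in the mutant, against 6.53, 7.03 and 6.44 in the wild type (adjusted p = 0.617).

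**Figure D3:**
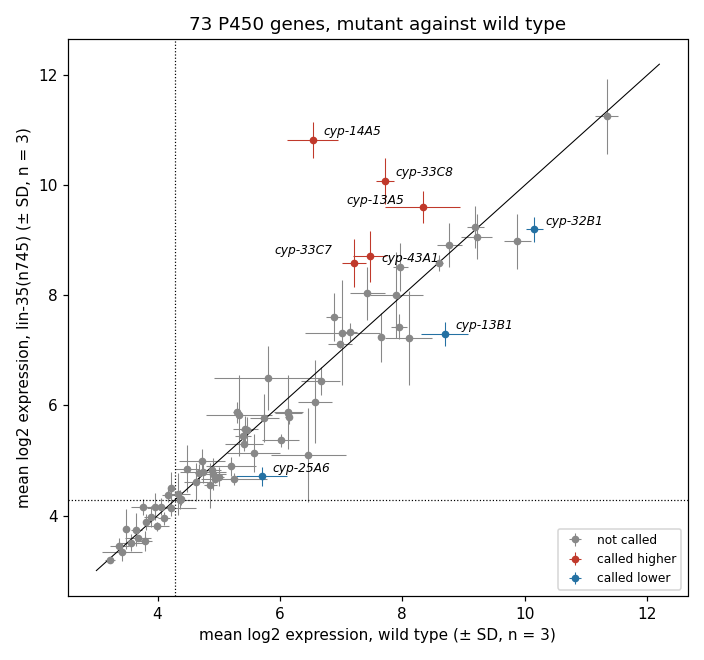
Mean log2 expression of the 73 P450 genes in the wild type (x axis) and in lin-35(n745) (y axis), with bars for the SD of 3 arrays, a diagonal of equal values and dotted lines at 4.29, the 25th percentile of probe-set means over the array. The 5 red genes lie above the diagonal, the 3 blue genes below it, and no called gene lies in the dim corner.

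Families 23, 36, 43 and 44, each with 1 measured gene, were counted apart from the families above and gave 1 call. Their resemblance to the CYP2, CYP3 or CYP4 enzymes was not considered. cyp-43A1 (E03E2.1, chromosome X) read 9.04, 8.92 and 8.18 in the mutant, against 7.18, 7.50 and 7.72 in the wild type. Mutant replicate 3 came closest to the wild type without reaching it, and the difference was 1.25 (SE 0.26, limma adjusted p = 0.0268). The call was lost without wild-type replicates 1 (0.101) or 2 (0.0766) and without mutant replicates 1 (0.0597) or 2 (0.0685). cyp-44A1, predicted to encode the worm's mitochondrial P450, read 8.11, 7.34 and 7.37 in the mutant, against 6.84, 6.78 and 7.02 in the wild type. Its arrays did not overlap and its difference was 0.73, but the adjusted p was 0.0949, and it was called under none of the alternatives. cyp-36A1, which acts downstream of HIF-1, read 5.21, 6.57 and 5.86 in the mutant, against 5.86, 6.25 and 6.29 in the wild type (adjusted p = 0.727).

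cyp-23A1 (B0304.3, chromosome II) was at the dim end of the array in both genotypes. Its brighter probe set read 3.56, 3.58 and 4.10 in the mutant, against 3.74, 3.66 and 3.56 in the wild type. Its other probe set read 3.78, 3.66 and 3.67 in the mutant, against 3.58, 3.90 and 3.53 in the wild type. All of these readings lay below 4.29, the 25th percentile of probe-set means, where a reading can be background. The differences were 0.09 (95% interval -0.35 to 0.53, limma adjusted p = 0.839) and 0.03 (adjusted p = 0.941). No difference between genotypes was detectable for this gene at this signal.

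In all, 14 of the 73 P450 genes lay below that percentile on all 6 arrays, and 0 of them were called. They belong to families 13, 14, 23, 29, 33 and 35 and included cyp-35B1, another gene downstream of DAF-16, at 4.04, 3.79 and 3.82 in the mutant, against 3.76, 3.81 and 3.85 in the wild type. Robust multi-array averaging compresses differences near this floor. By mean over the arrays, 56 of the 73 P450 genes and 12931 of all 17118 genes reached the 25th percentile. The share of calls among dim genes of the whole array was not counted, so the 0 calls here are not set against it. The arrays of the genotypes did not overlap for 19 P450 genes, 26.0% of the family, 9 with the mutant above and 10 with it below, against 31.3% of all genes. The SD of the 3 arrays was larger in the mutant than in the wild type for 46 of the 73 genes, or 63.0%, against 63.2% of all genes.

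Many P450 genes lie side by side, and 42 of the 73 are on chromosome V. Neighbouring P450 genes form 11 runs in the gene table, which held 35 of the measured members, of which 3 were called. Outside runs, 5 of 35 measured protein-coding members were called. Both counts are to be read beside the 11.8% of all genes that were called. Calls inside a run were single. In the run of 7 genes from cyp-13A2 to cyp-13A8 on chromosome II, cyp-13A5 rose, while its neighbours cyp-13A4 and cyp-13A6 had differences of 0.27 and 0.48 without a call. cyp-13A4 was dim on all arrays. The run of 5 on chromosome V that starts with cyp-33C4 ends with cyp-33C7, the 1 member that rose, next to cyp-33C6 at 0.08, which was dim on all arrays. The other members of that run, cyp-33C4, cyp-33C3 and cyp-33C5, had differences of 0.61, 0.04 and 0.57 without a call. cyp-32B1 fell beside cyp-33C12, which read 4.51, 4.82 and 4.80 in the mutant, against 4.97, 4.93 and 5.09 in the wild type (adjusted p = 0.295). The run of 6 from cyp-34A5 to cyp-34A10 had no call. Neighbouring genes of 1 subfamily can be alike in sequence, and the extent to which their probes share signal was not tested.

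**Figure D4:**
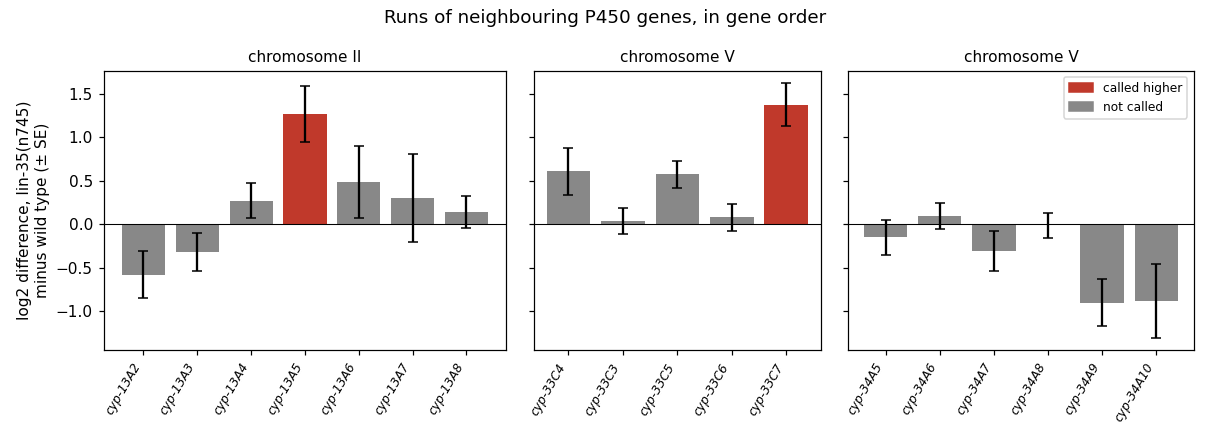
Log2 difference (y axis, lin-35(n745) minus wild type, bars with standard error) of the genes in the 3 longest runs of neighbouring P450 genes, in gene order along the chromosome. cyp-13A5 at 1.27 and cyp-33C7 at 1.37 are the called genes, and the neighbours on either side of cyp-13A5 are not called.

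Partners of the P450 enzymes were described from lists of electron donors, haem handling, dafachronic acid synthesis, fatty acid substrates and regulators. emb-8, the P450 reductase that supplies electrons, read 8.44, 8.30 and 8.50 in the mutant, against 7.69, 8.15 and 7.99 in the wild type. Its mutant arrays were all higher, but the difference of 0.47 was not called (limma adjusted p = 0.128). Of 9 measured genes of electron transfer and haem, 0 rose and 2 fell, with a list median of 0.07. Over all genes 5.71% rose and 6.12% fell, with a median of -0.04, and the counts of the lists that follow are to be read beside these shares. hpo-19, a cytochrome b5 reductase homologue, read 8.34, 8.60 and 8.54 in the mutant, against 9.48, 9.21 and 9.45 in the wild type. Its difference was -0.89 (SE 0.16, adjusted p = 0.0140). Leaving out wild-type replicate 1 (0.0739) or 3 (0.0514) ended that call. hrg-1, a haem transporter, read 7.73, 8.04 and 6.84 in the mutant, against 8.69, 9.21 and 8.76 in the wild type. Its difference of -1.35 (adjusted p = 0.0387) lost the call without wild-type replicates 1 (0.0937), 2 (0.118) or 3 (0.0736) and without mutant replicates 1 (0.0598) or 3 (0.0567). The hrg-1 probe set can match more than 1 transcript.

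Dafachronic acids, the steroid ligands of the receptor DAF-12, are made by a P450 that carries its own name, DAF-9. daf-9 read 5.41, 5.61 and 5.86 in the mutant, against 5.87, 6.08 and 5.26 in the wild type. The genotypes overlapped, with a 95% interval of the difference from -0.69 to 0.47. Of the 9 genes of this pathway 1 rose and 0 fell, with a median of 0.23. The gene that rose was strm-1, a sterol methyltransferase that limits dafachronic acid production. It read 8.36, 8.24 and 8.06 in the mutant, against 4.89, 5.13 and 4.51 in the wild type, with no mutant array near the wild-type range. The difference was 3.37 (SE 0.20, limma adjusted p = 0.000262), or 10.4-fold, and held without any 1 array.

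Enzymes that make or clear polyunsaturated fatty acids and their epoxides, the substrates and products of eicosanoid-forming P450s, were lower in part: 4 of 8 fell and 0 rose, with a median of -0.63, where 6.12% of all genes fell and 5.71% rose. The omega-3 desaturase gene fat-1 read 10.64, 10.43 and 10.27 in the mutant, against 11.34, 11.46 and 11.14 in the wild type. Its difference was -0.87 (SE 0.17, limma adjusted p = 0.0194), and the call was lost without wild-type replicates 1 (0.0846) or 2 (0.0653) or mutant replicate 3 (0.0532). The epoxide hydrolase gene ceeh-2 read 8.12, 7.55 and 7.73 in the mutant, against 8.61, 8.83 and 8.44 in the wild type (-0.82, adjusted p = 0.0405). Its call was kept without mutant replicate 1 and lost without wild-type replicates 1 (0.127), 2 (0.119) or 3 (0.0640) or mutant replicates 2 (0.0922) or 3 (0.111). The ceeh-2 probe set can match more than 1 transcript. The desaturase gene fat-2 (-0.63, adjusted p = 0.0349) and the elongase gene elo-2 (-0.62, adjusted p = 0.0465) lost their calls without any 1 of the arrays, with adjusted p of 0.0540 to 0.106 and 0.0517 to 0.158.

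Of 16 measured regulators of P450 genes 2 rose and 0 fell, with a median of 0.12. The zinc finger gene pqm-1 read 10.71, 10.68 and 10.41 in the mutant, against 8.90, 9.15 and 9.21 in the wild type (1.52, SE 0.16, limma adjusted p = 0.00240). That call held without any 1 array. The intestinal GATA factor gene elt-2 read 7.71, 8.03 and 8.13 in the mutant, against 7.07, 7.18 and 6.69 in the wild type. Its difference of 0.98 (adjusted p = 0.0215) lost the call without wild-type replicates 1 (0.0733) or 3 (0.0600) or mutant replicates 2 (0.0550) or 3 (0.0688). nhr-8, a nuclear receptor of the xenobiotic response, read 9.04, 8.58 and 8.25 in the mutant, against 8.33, 8.52 and 8.56 in the wild type (adjusted p = 0.751).

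Markers of tissues were read beside these genes. Of all genes 5.71% rose and 6.12% fell, and each marker list is set beside these shares. Among 17 intestine markers 4 rose and 1 fell, with a median of 0.39, against -0.04 over all genes. The mean log2 level of the list was 9.19 to 9.27 on mutant arrays, against 8.74 to 8.87 on wild-type arrays. None of the 17 was dim on all arrays. Of the hypodermis list 1 of 16 rose and 0 fell, with list means of 7.20 to 7.42 on mutant arrays, against 7.01 to 7.33 on wild-type arrays. Muscle markers had 0 of 11 called, at 10.5 to 10.6 on mutant arrays, against 9.66 to 10.9 on wild-type arrays. Among neuron markers 0 rose and 2 of 12 fell, at 9.07 to 9.18 on mutant arrays, against 9.29 to 9.41 on wild-type arrays. The embryo list had 1 of 14 higher and 1 lower, at 6.11 to 6.33 on mutant arrays, against 5.79 to 6.38 on wild-type arrays. Wild-type replicate 2 gave the lowest wild-type mean of the hypodermis, muscle, neuron and embryo lists, and wild-type replicate 3 that of the intestine list. Among the marker calls, the rises of act-5 and ifd-2 (intestine) and glp-1 (embryo) held without any 1 array. The probe sets of act-5, ifd-2, glp-1 and elt-1 can match more than 1 transcript. Of the 6 fits without 1 array, elt-1 (hypodermis), ric-4 and snt-1 (neuron) kept the call in 1 each. elt-2 (intestine) and med-1 (embryo) kept it in 2 each, and cpr-1 (intestine) in 3. The remaining intestine rise, pept-1 (1.04, limma adjusted p = 0.0226), was not followed through these fits. elt-2 is also among the regulators, and end-3 is in both the intestine and embryo lists. The part of the marker list shifts in the P450 differences was not tested. With mutant replicates 1 and 3, the arrays of largest actin 3′ to 5′ difference, left out together, cyp-14A5, cyp-33C8 and cyp-33C7 were called higher and 0 P450 genes lower. The single mutant array then left is taken to vary as much as those of the wild type.

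**Figure D5:**
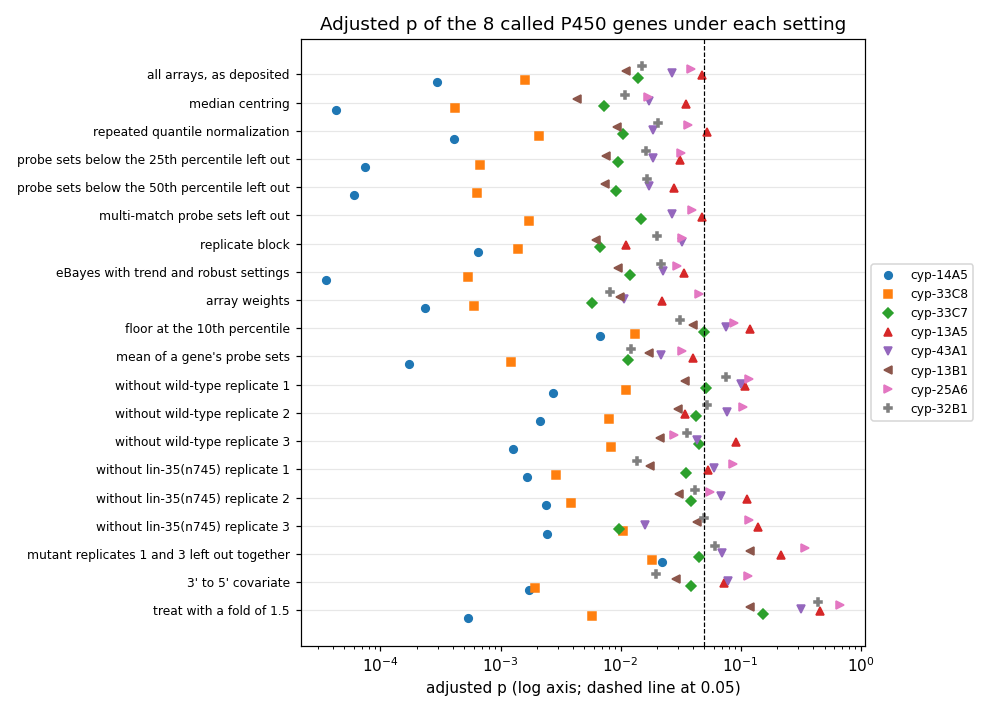
Adjusted p (x axis, log scale) of the 8 called P450 genes under each processing alternative (rows), with a dashed line at the threshold of 0.05. cyp-14A5 and cyp-33C8 stay left of the line in all settings that measured them, whereas cyp-13A5 and cyp-25A6 cross it in most of the settings that leave out an array.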

How the data were processed

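Values on the log2 scale for every probe set were deposited by the authors and come from RMA, per the submitters' processing notes. Its version is not given in the sources used here. RMA has a step that equalises array distributions, and it compresses dim values. The medians of the deposited values still differed. They were 5.98, 6.11 and 5.91 on mutant replicates 1 to 3, against 5.93, 5.91 and 5.91 on wild-type replicates 1 to 3. Per the labels' protocols, 6 µg of total RNA was labelled per array. From 22625 probe sets, 77 controls were left out and 22548 were tested with limma 3.58.1 in R 4.3.3 (lmFit and eBayes, two-sided, 4 residual and 3.24 prior degrees of freedom), with Benjamini-Hochberg adjustment over all of them. Gene names came from the platform annotation, and the 73 P450 symbols all matched the WBcel235 gene table by Entrez identifier, which was used for names, chromosomes and neighbours only.

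The members, lists and alternatives were chosen with earlier results of these data known. Every called P450 gene, cyp-23A1, the 5 with the highest readings and, in families without a call, the gene of smallest p are given by array, beside others chosen after their values were seen. From each list up to 4 called genes of smallest p could be named, plus emb-8, daf-9 and nhr-8. Alternatives changed the scaling, the filter on dim or multi-match probe sets, the choice of probe set, the variance model, the covariates and the arrays included. The fit was checked on simulated data. Same-numbered arrays of the genotypes deviated together only weakly (correlations of 0.05, 0.08 and 0.07), so the numbers were not taken to pair the samples.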

Additional observations from a re-analysis of the deposited data

How the results depend on the processing

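Leaving out 1 array gave 2 to 5 P450 genes higher, 1 to 4 lower and 800 to 1890 genes called over the array, against 5, 3 and 2025 with all arrays; the lowest counts came without wild-type replicate 1. With mutant replicates 1 and 3 left out together 3 P450 genes were higher, 0 lower and 622 genes called in all, and with limma's treat at a fold of 1.5 these were 2, 0 and 422. A floor at the 10th percentile gave 3 P450 genes higher and 1247 genes in all. The 3′ to 5′ covariate gave 3 higher and 2 lower. With it the calls of cyp-13A5 (limma adjusted p = 0.0722), cyp-43A1 (0.0788) and cyp-25A6 (0.115) were lost. Leaving out multi-match probe sets gave 4 higher and 1 lower among 65 P450 genes then measured. Without these probe sets cyp-14A5, cyp-13B1 and cyp-32B1 were not measured, so their calls could not be examined there. With the replicate block 5 P450 genes were higher and 4 lower, cyp-29A4 being added, and 2441 genes were called in all; the replicate numbers are not known to pair the arrays. Differences that changed sign belonged to uncalled genes. That of cyp-32A1 was -0.042 with median centring, -0.11 without multi-match probe sets, -0.033 as the mean of probe sets, -0.014 without mutant replicates 1 and 3, -0.14 with the 3′ to 5′ covariate, and -0.16 to 0.22 without 1 array. Without mutant replicates 1 and 3, cyp-23A1 was at -0.076, cyp-36A1 at 0.44 and cyp-42A1 at 0.072. The covariate gave 0.18 for cyp-36A1 and -0.026 for nhr-8, and repeated quantile normalization 0.10 for cyp-37B1. Leaving out 1 array gave ranges of -0.084 to 0.18 for cyp-23A1, -0.60 to 0.082 for cyp-36A1, -0.38 to 0.026 for cyp-37A1, -0.48 to 0.14 for cyp-37B1, -0.35 to 0.065 for daf-9 and -0.054 to 0.34 for nhr-8. The cause was not tested. The median difference of all probe sets was -0.11 with median centring and -0.03 as deposited. Signal over background limits what can be seen for the 14 dim P450 genes.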
